A study of Mus musculus with 8 samples.

Results

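The genes described here encode the machinery that docks, primes and fuses synaptic vesicles. They were taken by gene name from the table of all genes: synaptotagmins, synapsins, syntaxins, syntaxin-binding proteins, VAMPs, SNAPs, complexins, RIMs, Munc13 proteins (Unc13 genes), SV2 proteins and the Rab3 GTPases. The name pattern also took in Snap91, which encodes AP180 and was kept apart from the SNAPs. The pattern picked 75 of 34620 gene names, and 71 of the 75 had a mean over the 8 libraries of 1 normalized count or more and were tested, as were 19789 names in all. The libraries came from hippocampus (n = 4) and prefrontal cortex (PFC, n = 4) of C57Bl6 mice aged 7 to 9 weeks, for which the labels give no treatment, and each library held the pooled tissue of 2 mice. The paper's section on RNA preparation gives an older age range. Gene expression was measured by total RNA sequencing after ribosomal RNA removal, and values are normalized counts, that is, reads per gene divided by a size factor for each library.

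A vesicle fuses when its SNARE protein, a VAMP, zippers with a syntaxin and a SNAP in the plasma membrane. Among the syntaxin-binding proteins, Munc18 proteins hold and guide the syntaxin and others restrain SNARE assembly, Munc13 and RIM proteins prime the vesicle at the active zone, and Rab3 GTPases bring the vesicle to RIM. Complexins clamp and assist the assembled SNAREs, and some synaptotagmins, though not all, act as calcium sensors. Synapsins tether vesicles in the reserve pool, and SV2 proteins are vesicle glycoproteins. Neurons of both regions release transmitter through these proteins, and many family members have close paralogues that are used by different neurons or at different steps.

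The libraries held between 3164964 and 16636500 reads assigned to genes, so a count of 3 reads corresponded to 1.30 to 6.93 normalized counts. Hippocampus replicate 2 stood apart from the other hippocampal libraries. Over 12137 genes, the SD of its log2 deviation from the mean of the other 3 libraries of its region was 0.512, against 0.259 to 0.374 in the other 7 libraries. Among 66 release machinery members, 17 lay more than 1.5-fold from the other hippocampal libraries, 11 above and 6 below, and counts are therefore given with and without that library. Marker genes also differed between the regions. The summed oligodendrocyte markers ranged from 110844 to 119196 normalized counts in hippocampus and from 53861 to 79194 in PFC, and the summed striatal projection neuron markers from 1371 to 1643 in hippocampus and from 2743 to 5344 in PFC, with all 10 of 10 striatal markers higher in PFC. Summed pan-neuronal markers overlapped, at 13954 to 17674 and 15222 to 16102, and their median log2 fold change was -0.18, lower than that of the release machinery members given below. Summed inhibitory neuron, cortical layer and olfactory bulb markers were also higher in every PFC library than in any hippocampal one. By the limma test below, 1 of 8 inhibitory markers and 5 of 10 cortical layer markers were higher in PFC. So were 4 of 7 olfactory bulb markers. Mef2c weighed most in the cortical layer sum, with means of 2039 in hippocampus and 6563 in PFC. Summed astrocyte, choroid plexus, thalamic, dentate granule and CA pyramidal neuron markers were higher in every hippocampal library. By the same test, 1 of 7 astrocyte, 7 of 10 choroid plexus and 3 of 6 thalamic markers were higher in hippocampus. So were 5 of 6 dentate granule and 5 of 7 CA pyramidal markers. Slc1a2 weighed most in the astrocyte sum, with means of 52485 in hippocampus and 44432 in PFC. Summed excitatory neuron, microglia and endothelial markers overlapped. The part of these cell types in the results was not tested. No marker in these lists was at 0 in every library. In bulk tissue, fewer cells of a type and less RNA per cell cannot be told apart. The methods name male mice, yet Xist was read in all 8 libraries, as were the Y-linked genes Ddx3y, Eif2s3y, Kdm5d and Uty.

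Release machinery genes differed between the regions mostly by being higher in PFC. Of the 71 members tested, 11 (15.5%, against 5.68% of all genes) passed an adjusted p of 0.05 with limma, Benjamini-Hochberg adjustment running over all genes tested, and of these 10 were higher in PFC and 1 was higher in hippocampus. The 10 members were 14.1% of those tested, against 3.13% of all genes, and the single member was 1.41%, against 2.55% of all genes. The median log2 fold change, hippocampus over PFC, was -0.12 over the members and 0.0038 over all genes tested. Those higher in PFC included Syt6, Stx1a, Cplx3, Sv2c, Rims3, Rab3b, Syt4, Rab3a and Rims2, and the 1 higher in hippocampus was Snap23. The p-values measure the spread between libraries of a region, which includes library preparation as well as differences between pools of 2 mice. The test treated the regions as independent, though they presumably came from shared animals. Without hippocampus replicate 2, 21 members were higher in PFC and 2 in hippocampus, where 11.2% of all genes were called in either direction, 6.2% higher in PFC and 5.0% in hippocampus. edgeR on whole reads called 8 members higher in PFC and 1 in hippocampus, where it called 5.91% of all genes, 3.13% and 2.78% by direction. DESeq2 called 13 and 1, where it called 7.39% of all genes, 4.04% and 3.36% by direction. At an unadjusted p under 0.05 in limma, 19 members were higher in PFC and 4 in hippocampus, where 8.74% and 8.19% of all genes were (16.9% in either direction). Leaving out other single libraries lowered the total to as few as 5, and Syt6, Stx1a and Rab3b were called whichever library was left out.

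**Figure D1:**
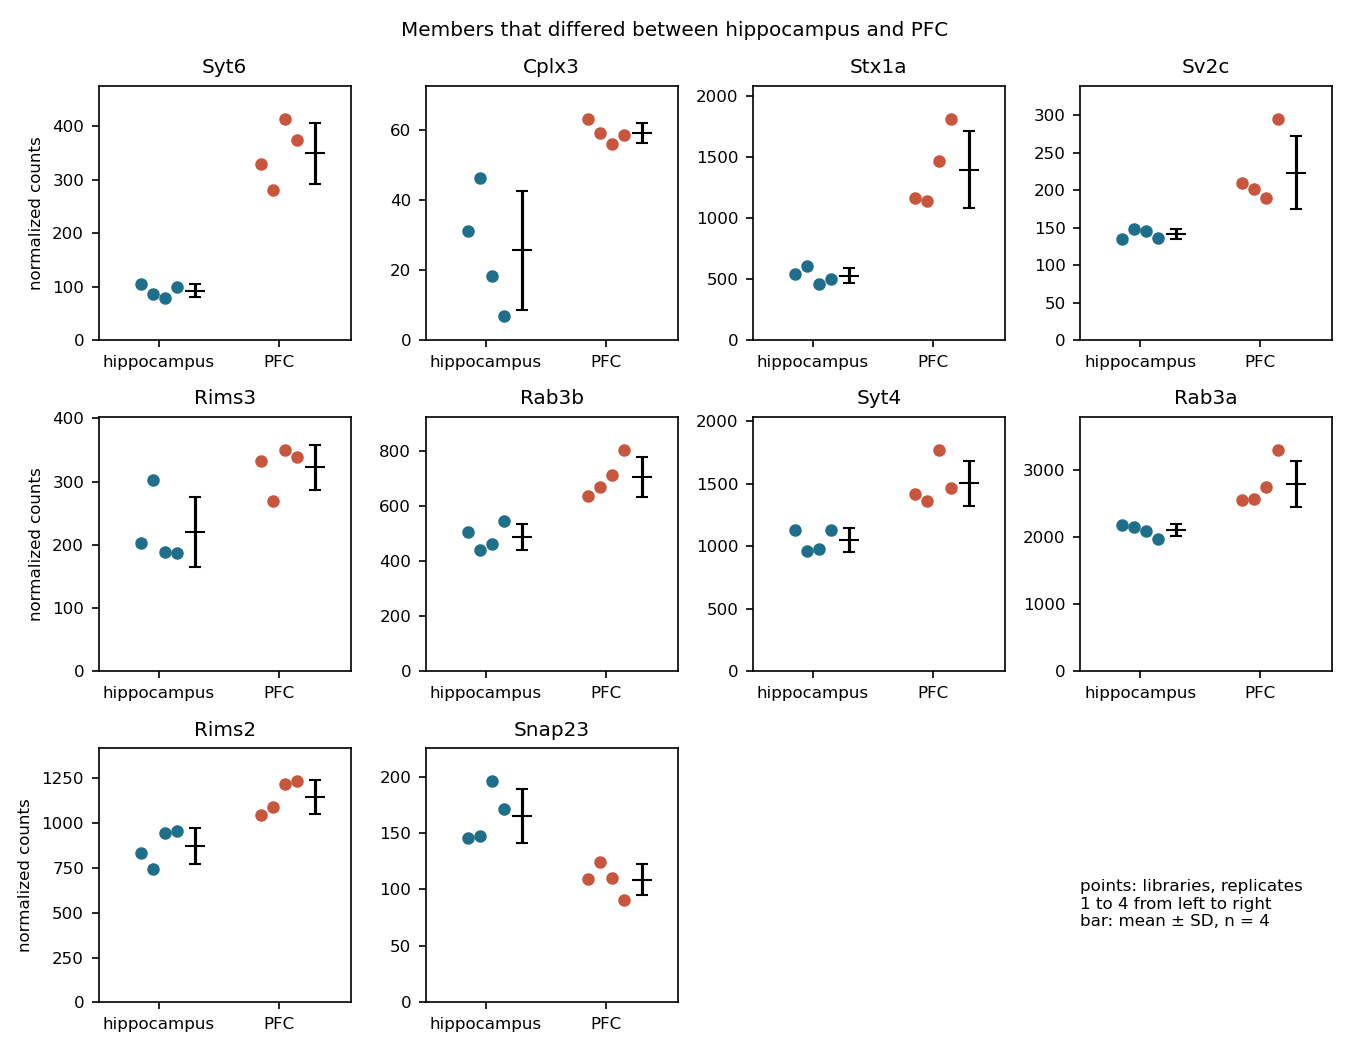
Normalized counts of 10 of the members called by limma in each library of hippocampus (blue) and PFC (red), with the mean ± SD (n = 4) as a bar. Every axis starts at 0; among those plotted, the 2 regions overlapped only in Rims3.

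Upstream sequence was examined for the members in the RefSeq promoter tables (GRCm38.p6), which hold windows for 55 of the 75 members. In 71 windows of 300 bases, the GC box GGGCGG occurred in 66.2%, against 35.7% of 32851 windows of all genes; the median GC content was 62.3% against 52.7%. Both strands were searched for each motif, and overlapping matches were counted once a window. The CCAAT box, spelled as its name, occurred in 29.6% against 37.4%. The TATA box TATAAA occurred in 7.04% against 13.6%. The full cAMP response element TGACGTCA occurred in 1.41% against 1.79%, and its core TGACG, contained in the full element, in 22.5% against 20.8%. Of the RE1 element, the left part CAGCACC occurred in 11.3% against 7.14%, and the right part GGACAG in 22.5% against 22.2%. The windows of the members with the largest stable fold changes and of Snap23, the member called in the other direction, are shown over the 250 bases before the transcript start, on the plus strand, with capitals marking a GC box, CCAAT box, TATA box or full cAMP response element on either strand. Syt6, chr3:103574995-103575244, shown for the most upstream of its 3 starts, has 2 GC boxes. Stx1a, chr5:135023232-135023481, has 1. Snap23, chr2:120567421-120567670, has 1 CCAAT box on the minus strand and no GC box. Of the 11 windows of called members, 300 bases each, 8 held a GC box and 3 a CCAAT box. Cplx3, called higher in PFC, had a CCAAT box and no GC box, and Rab3a, also higher in PFC, had both.
Syt6: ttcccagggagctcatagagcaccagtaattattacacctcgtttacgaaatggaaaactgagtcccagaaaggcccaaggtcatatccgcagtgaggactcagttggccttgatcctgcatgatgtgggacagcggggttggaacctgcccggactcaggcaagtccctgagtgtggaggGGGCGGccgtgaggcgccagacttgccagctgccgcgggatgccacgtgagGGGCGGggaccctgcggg
Stx1a: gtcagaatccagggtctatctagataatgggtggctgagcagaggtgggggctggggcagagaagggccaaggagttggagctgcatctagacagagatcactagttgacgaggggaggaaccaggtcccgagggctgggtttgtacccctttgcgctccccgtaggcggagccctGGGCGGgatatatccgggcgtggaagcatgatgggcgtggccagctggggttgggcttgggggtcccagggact
Snap23: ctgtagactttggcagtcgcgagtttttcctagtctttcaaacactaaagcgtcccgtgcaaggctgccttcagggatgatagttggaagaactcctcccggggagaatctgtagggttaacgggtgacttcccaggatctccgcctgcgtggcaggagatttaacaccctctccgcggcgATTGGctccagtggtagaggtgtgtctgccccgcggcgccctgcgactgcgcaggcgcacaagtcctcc

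The synaptotagmin family carried the largest fold change among the members. Syt6, a synaptotagmin, lies at chr3:103379154-103449490 on the plus strand (NCBIM37). Its normalized counts were 105.6, 86.6, 79.3 and 99.3 in hippocampus replicates 1 to 4, and 328.9, 281.2, 412.5 and 373.2 in PFC replicates 1 to 4. The lowest PFC library was therefore above every hippocampal one. The mean was 92.7 ± 11.9 (SD, n = 4) in hippocampus and 349 ± 56.6 (SD, n = 4) in PFC, 3.76-fold higher in PFC, with a log2 fold change of -1.90 (SE 0.16; limma adjusted p = 5.28e-06, edgeR 3.33e-06). Per kilobase of exon, Syt6 made up 0.328% ± 0.0464 of the summed synaptotagmin level in hippocampus and 1.08% ± 0.150 in PFC, so it remained a minor member. Its exons share 503 bases with the pseudogene Atg4a-ps (mean 10.7 normalized counts) on the opposite strand, and the reads were counted without strand.

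Syt4, a synaptotagmin found on dense-core and other vesicles, was also higher in PFC. It had 1131, 962, 976 and 1132 normalized counts in hippocampus replicates 1 to 4, and 1419, 1363, 1769 and 1463 in PFC replicates 1 to 4. No PFC library was as low as any hippocampal one, and the log2 fold change was -0.51 (SE 0.11; limma adjusted p = 0.00841). Without PFC replicate 3 the adjusted p of limma was 0.0514. Its exons share 575 bases with Gm16871 (mean 1.36 normalized counts) on the opposite strand. Syt1, the main fast calcium sensor of forebrain neurons, had 10162, 9455, 10223 and 10777 normalized counts in hippocampus and 11757, 12129, 13455 and 12083 in PFC. Its groups did not overlap, but the log2 fold change of -0.28 did not pass the limma test (adjusted p = 0.097). Without hippocampus replicate 2 its adjusted p was 0.0402, with DESeq2 0.0194, and with a correction for transcript GC content chosen after seeing the data 0.0145. Syt13 had 1671, 1935, 1586 and 1820 normalized counts in hippocampus and 2187, 1977, 2087 and 2564 in PFC (log2 fold change -0.33, limma adjusted p = 0.0895), and it passed with DESeq2 (adjusted p = 0.0489), without hippocampus replicate 2 (0.00787) and with the GC correction (0.0461). Syt9 had 59.7, 26.9, 47.3 and 46.2 in hippocampus and 59.9, 77.8, 73.1 and 81.4 in PFC (log2 fold change -0.73, limma adjusted p = 0.105), where hippocampus replicate 1 and PFC replicate 1 nearly met. Syt2, a fast sensor known from brainstem synapses, gave a log2 fold change of -0.14 and Syt7, a slow high-affinity sensor, -0.15, neither past the threshold. Over the family, 2 of 16 tested synaptotagmins were called, both higher in PFC, and 12 of 16 had a negative log2 fold change.

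The SNARE proteins and their partners included the next largest change among those called by limma whichever library was left out. Stx1a, the neuronal plasma membrane syntaxin, lies at chr5:135499352-135526970 on the plus strand (NCBIM37). It had 541, 604, 464 and 506 normalized counts in hippocampus replicates 1 to 4, and 1167, 1139, 1468 and 1808 in PFC replicates 1 to 4. The lowest PFC library was well above the highest hippocampal one. Stx1a was 2.64-fold higher in PFC, with a log2 fold change of -1.38 (SE 0.14; limma adjusted p = 2.22e-05, edgeR 1.67e-05). Of the marker sums higher in every PFC library, the striatal ones were 2743, 3524, 3735 and 5344 in PFC replicates 1 to 4. The cortical layer sums there were 8410, 9183, 11219 and 10590, and the olfactory bulb sums 350, 364, 494 and 529. The inhibitory neuron sums were 6541, 6035, 7065 and 6735. The part of these cell types in the Stx1a values was not tested.

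Stxbp5, which encodes tomosyn, an inhibitor of SNARE assembly, had 2327, 1949, 2309 and 2271 normalized counts in hippocampus and 2375, 2380, 2594 and 2461 in PFC. Its groups did not overlap, but the log2 fold change of -0.15 did not pass (limma adjusted p = 0.478).

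Snap23, the broadly expressed relative of Snap25, was the only member called higher in hippocampus. It lies at chr2:120393407-120426991 on the plus strand (NCBIM37) and had 145.8, 147.2, 195.9 and 170.9 normalized counts in hippocampus, and 109.1, 124.3, 110.3 and 90.8 in PFC. Every hippocampal library exceeded every PFC one, the mean was 1.52-fold higher in hippocampus, and the log2 fold change was 0.60 (SE 0.16; limma adjusted p = 0.0379). The call was lost when any one of 6 of the 8 libraries was left out, with adjusted p up to 0.16. Summed oligodendrocyte, astrocyte, choroid plexus, thalamic, dentate granule and CA pyramidal markers were higher in the same region. Their part in the Snap23 values was not tested. Snap25, the neuronal SNAP and the most abundant member per kilobase, had 32163, 18656, 31824 and 33587 in hippocampus and 28694, 34508, 33111 and 36488 in PFC. Its groups overlapped, its log2 fold change was -0.22, and hippocampus replicate 2 was far below the other libraries. Without it the log2 fold change was -0.02.

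The syntaxins of endosomes and the Golgi gave small values, such as -0.04 for Stx12, 0.03 for Stx16, 0.12 for Stx7 and -0.04 for Stx6. Over the family, 8 of 14 tested syntaxins had a negative log2 fold change and the median was -0.04, while over the 8 syntaxin-binding members it was 0.05, with 4 negative. Stxbp6, which encodes amisyn, a syntaxin-binding SNARE-like protein, had the highest value of that family at 0.45 (limma adjusted p = 0.161), and its groups overlapped.

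None of the 7 VAMP members tested passed the threshold over the 8 libraries. Vamp2, the main vesicular SNARE of the forebrain, had 1783, 3316, 2285 and 1802 normalized counts in hippocampus and 2634, 2200, 2499 and 2227 in PFC, a log2 fold change of -0.10. Hippocampus replicate 2 was the highest of the 8, and without it Vamp2 gave -0.29 and passed (limma adjusted p = 0.0492). With the GC correction Vamp2 gave -0.06 and did not pass (limma adjusted p = 0.875). Vamp1, its paralogue, gave 0.27 (limma adjusted p = 0.276). Vamp7-ps is a pseudogene, and Vamp7 itself had 0 reads under that name, so the 2 could not be separated with certainty. Stxbp3a and Stxbp3b are likewise near copies.

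At the active zone all 4 RIM members had a negative log2 fold change, with a median of -0.45, and 2 passed the threshold. Rims2, which primes vesicles and tethers calcium channels, had 833.5, 746.7, 944.8 and 958.7 normalized counts in hippocampus and 1045, 1089, 1220 and 1235 in PFC. The groups did not overlap (log2 fold change -0.40, SE 0.11; limma adjusted p = 0.0405), but the call was lost when any one of 5 libraries was left out (adjusted p up to 0.151). Rims3, a short RIM, had 203, 303.1, 188 and 187.1 in hippocampus and 332, 269.9, 349.5 and 338.2 in PFC, where hippocampus replicate 2 lay above PFC replicate 2. Its log2 fold change was -0.57 (SE 0.16; limma adjusted p = 0.0453, edgeR 0.0609), and the call was lost without any one of 6 libraries (limma adjusted p up to 0.165). Rims1, the paralogue of Rims2, gave -0.28 and Rims4 -0.49, and neither passed with limma over the 8 libraries (adjusted p = 0.16 and 0.144). Without hippocampus replicate 2 both passed (limma adjusted p = 0.00418 and 0.000458). With the GC correction neither passed (limma adjusted p = 0.117 and 0.0891).

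No Munc13 member passed. Unc13a, which encodes Munc13-1, the priming factor of most glutamatergic synapses, had 3147, 3364, 3162 and 3121 normalized counts in hippocampus and 3501, 3568, 3627 and 4332 in PFC. The groups did not overlap, but the log2 fold change was only -0.23 (limma adjusted p = 0.222). Unc13b, which encodes Munc13-2, had 551.8, 561.9, 532.5 and 487.4 in hippocampus and 610.2, 578.8, 590.1 and 603.2 in PFC (log2 fold change -0.16, limma adjusted p = 0.482). Unc13c gave -0.24, also short of the threshold.

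Among the Rab3 GTPases, Rab3b and Rab3a were higher in PFC. Rab3b had 505, 438.8, 460.6 and 545.2 normalized counts in hippocampus and 636.3, 667.9, 711.8 and 802.2 in PFC. The groups did not overlap, the mean was 1.45-fold higher in PFC and the log2 fold change was -0.53 (SE 0.11; limma adjusted p = 0.00938). The exons of Rab3b share 317 bases with 8030443G20Rik (mean 0.938 normalized counts) on the opposite strand. Rab3a, the main Rab3 of synaptic vesicles, had 2189, 2159, 2103 and 1982 in hippocampus and 2565, 2580, 2753 and 3303 in PFC (log2 fold change -0.40, SE 0.10; limma adjusted p = 0.0253). Its PFC values lay above all hippocampal values, but the call was lost when any one of 5 libraries was left out. Rab3c gave a log2 fold change of -0.03 and Rab3d 0.18, and neither passed.

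The clamping and vesicle glycoprotein families each had 1 member called by limma. Cplx3, a complexin known from retinal ribbon synapses and from deep cortical neurons, had 31.2, 46.2, 18.4 and 6.93 normalized counts in hippocampus, the last resting on 3 reads, and 63.0, 59.0, 55.9 and 58.5 in PFC. The PFC libraries were close together and the hippocampal ones were spread, with a log2 fold change of -1.45 (SE 0.41; limma adjusted p = 0.0458, edgeR 0.0528, DESeq2 0.0152). The call was lost when any one of 6 libraries was left out (limma adjusted p up to 0.144). Over all 8 fits that left out 1 library, the log2 fold change ran from -1.82 to -0.96. The value of -1.82, without hippocampus replicate 2, passed (limma adjusted p = 0.000975). The value of -0.96, without hippocampus replicate 4, which held the 3 reads, did not pass (limma adjusted p = 0.0792). The log2 fold change of edgeR was -1.10. With all 8 libraries, limma also missed the threshold with pseudocount 0.5 (adjusted p = 0.0516), a minimum mean of 5 (0.0505) or no filter on low values (0.0952). Sv2c, the least abundant SV2 per kilobase, had 134.6, 148.2, 146 and 136.3 in hippocampus and 209, 200.9, 189.1 and 294.5 in PFC. The groups did not overlap (log2 fold change -0.64, SE 0.15; limma adjusted p = 0.021), and PFC replicate 4 was the highest. The call was lost without PFC replicate 4 (limma adjusted p = 0.0881) and without hippocampus replicate 1 (0.068), 3 (0.0555) or 4 (0.0536). Sv2b had 8823, 6200, 7404 and 8513 in hippocampus and 8790, 9787, 10778 and 10582 in PFC (log2 fold change -0.38, limma adjusted p = 0.0776). Sv2b passed with DESeq2 (adjusted p = 0.0486), and with limma without hippocampus replicate 2 (0.0437) and with the GC correction (0.0126). Sv2a gave -0.19, and -0.35 without hippocampus replicate 2, where it passed (limma adjusted p = 0.00738). With the GC correction Sv2a did not pass (limma adjusted p = 0.573). Cplx1 and Cplx2, the complexins of most forebrain synapses, gave -0.12 and 0.22, with hippocampus replicate 2 the highest of the 8 libraries in both. Without that library Cplx1 gave -0.27 and passed (limma adjusted p = 0.0466), and Cplx2 gave -0.015. With the GC correction Cplx1 gave -0.04 and did not pass (limma adjusted p = 0.884). No synapsin was called: Syn1 gave -0.25, Syn2 0.10 and Syn3 -0.14. The exons of Syn3 share 1733 bases with Timp3 on the opposite strand. The mean of Timp3 was 595 normalized counts, above that of Syn3, and the effect of the overlap on the Syn3 values was not tested.

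**Figure D2:**
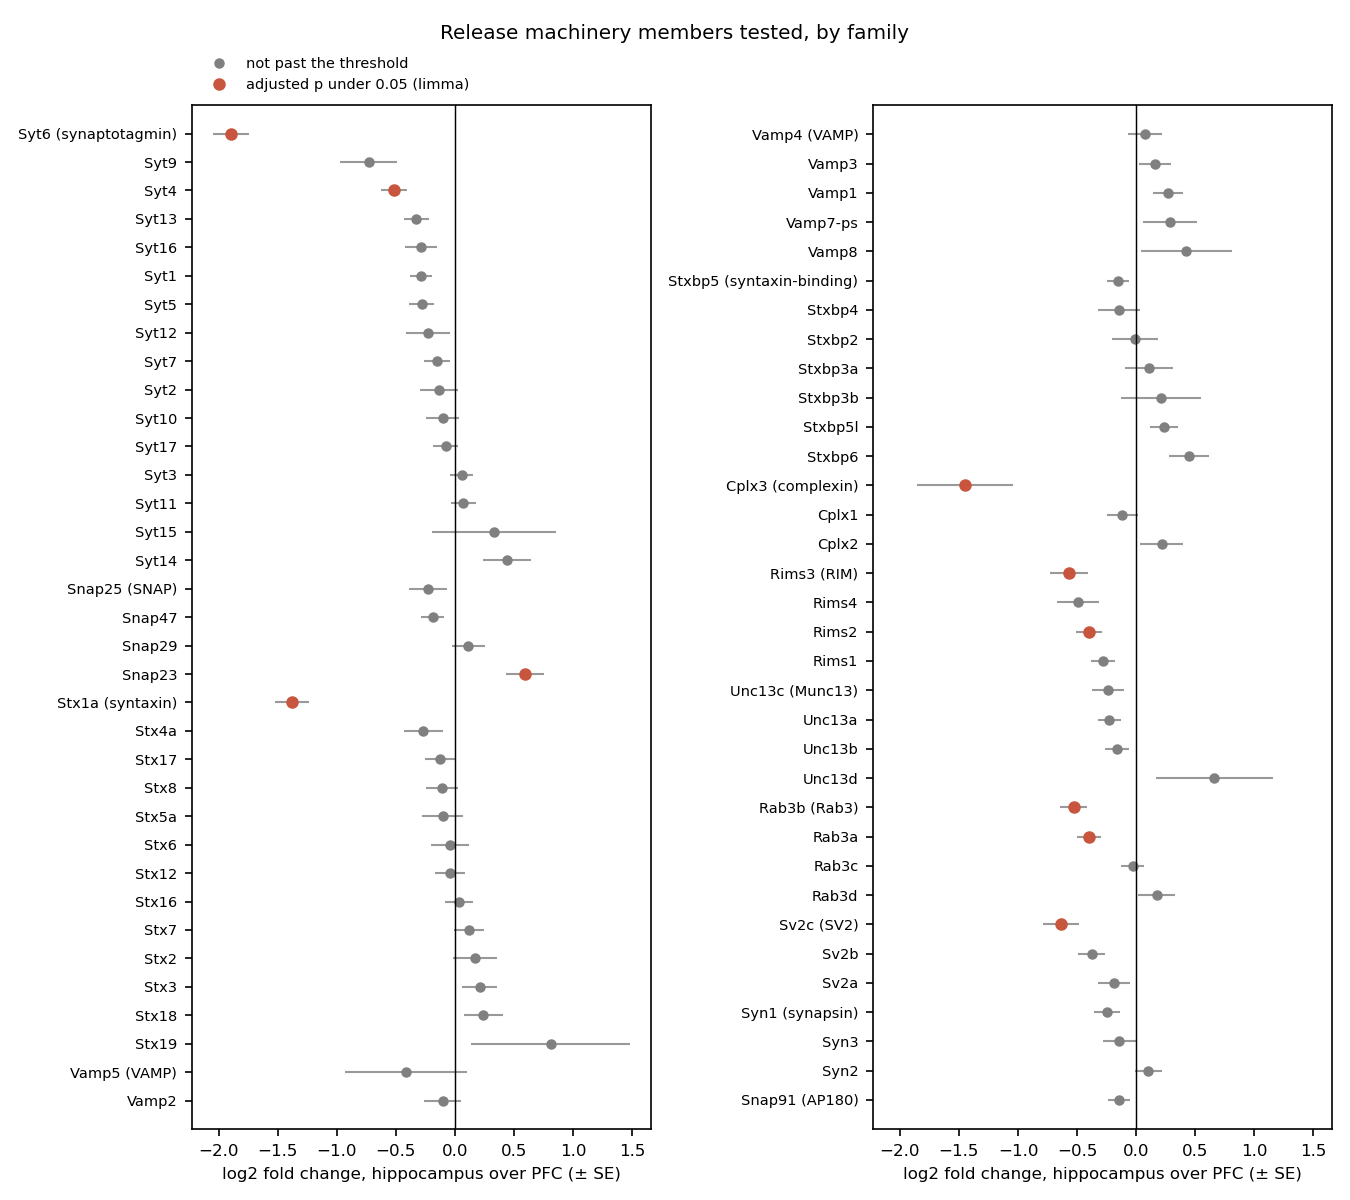
Log2 fold change, hippocampus over PFC, with its standard error for 69 of the members tested, grouped by family. Points left of 0 had the higher mean in PFC; red points are 10 members called, and 44 of the 69 lie left of 0.

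Of the 71 members, 46 had a negative log2 fold change (64.8%), against 49.6% of all genes. Values of the 2 regions did not overlap in 16 members, 15 higher in PFC and 1 in hippocampus, where 6.27% and 5.54% of all genes behaved so (11.8% in all). Of the 16, 6 were not called, namely Stxbp5, Syt1, Syt13, Syt9, Unc13a and Unc13b. Members just above the filter were Stx19 with a mean of 3.82 and Vamp5 with 7.25 normalized counts. The 4 members below it were Stx11 with a mean of 0.448 and 7 reads in all, Cplx4 with 0.241 and 2 reads, and Syt8 and Vamp7 with 0 reads in every library.

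Ratios of paralogues within a library do not depend on its size factor. Of 9 pairs examined, 8 are given here, and the values of the 2 regions overlapped in each of the 8. The log2 ratio of Rab3a to Rab3c was -1.19, -0.96, -1.19 and -1.39 in hippocampus replicates 1 to 4, and -0.84, -0.995, -0.81 and -0.59 in PFC replicates 1 to 4. Hippocampus replicate 2 lay just above PFC replicate 2, so the groups overlapped by that one pair of values. The mean was -1.18 ± 0.18 (SD, n = 4) in hippocampus and -0.81 ± 0.17 (SD, n = 4) in PFC, and the two-sided exact permutation test gave p = 0.0571, or 0.193 after adjustment over the 9 pairs. The smallest p that 4 against 4 libraries allow is 0.0286. Cplx1 to Cplx2 and Vamp1 to Vamp2 each gave an exact permutation p of 0.0857, with differences of -0.33 and 0.37 in the log2 ratio. Per kilobase of exon, Stx1a made up 8.28% ± 0.965 of the summed syntaxin level in hippocampus and 18.4% ± 2.94 in PFC (SD, n = 4), and its share was higher in every PFC library than in any hippocampal one.

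**Figure D3:**
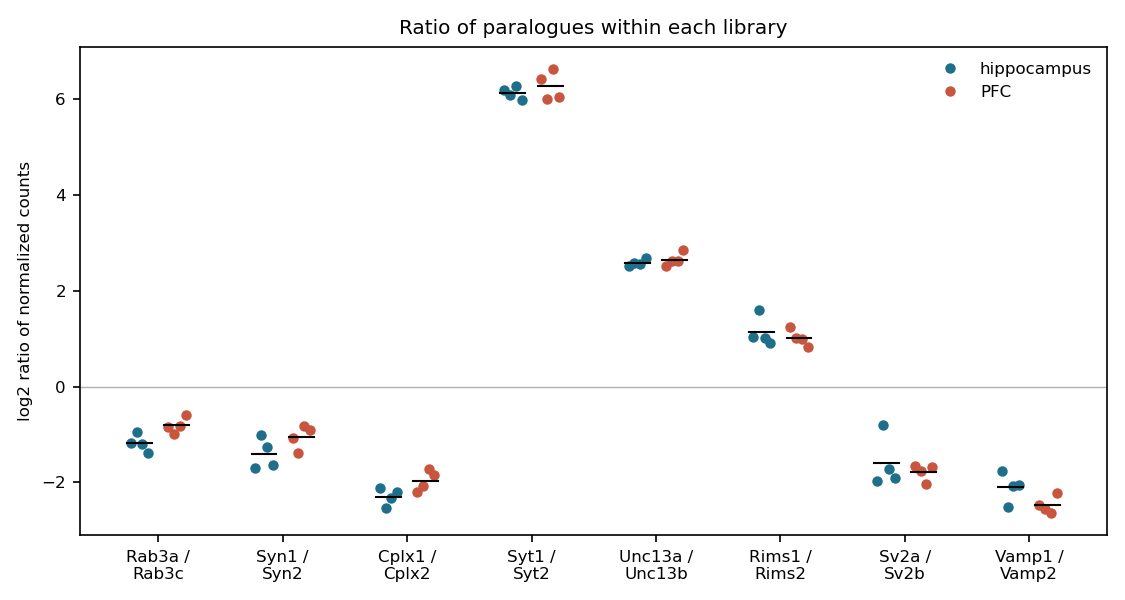
Log2 ratio of normalized counts for 8 paralogue pairs in each library of hippocampus (blue) and PFC (red), with group means as lines. Values of the 2 regions overlapped in every pair plotted; Rab3a over Rab3c had means of -1.18 and -0.81.

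Other presynaptic genes were called in both directions. Of 70 genes in 4 lists (vesicle membrane and fusion cycle, active zone scaffold, vesicle endocytosis and vesicular transporters), 7 were called by limma (10.0%, against 5.68% of all genes), 5 higher in PFC and 2 higher in hippocampus (3.13% and 2.55% of all genes). The PFC genes were Doc2a (log2 fold change -1.90), Rph3a (-0.43), Slc6a17 (-0.47), Lin7a (-0.42) and Lin7b (-0.62). Doc2a had 20.8, 23.1, 8.93 and 13.9 normalized counts in hippocampus and 69.2, 31.4, 64.5 and 99.5 in PFC, while its paralogue Doc2b, also a calcium sensor for release, had 492, 643.7, 537.8 and 570.6 in hippocampus and 356.6, 291.3, 180.5 and 186.9 in PFC. The 2 genes thus differed in opposite directions, Doc2b by a log2 fold change of 1.19 (SE 0.19; limma adjusted p = 0.000974). Ppfia2, a liprin scaffold, was higher in hippocampus by 0.48. None of the 25 endocytosis genes or the 6 transporters tested was called by limma or edgeR. DESeq2 called 1 of each, Sh3gl3 (adjusted p = 0.0319) and Slc32a1 (adjusted p = 0.0245), which are named here after their values were seen.

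**Figure D4:**
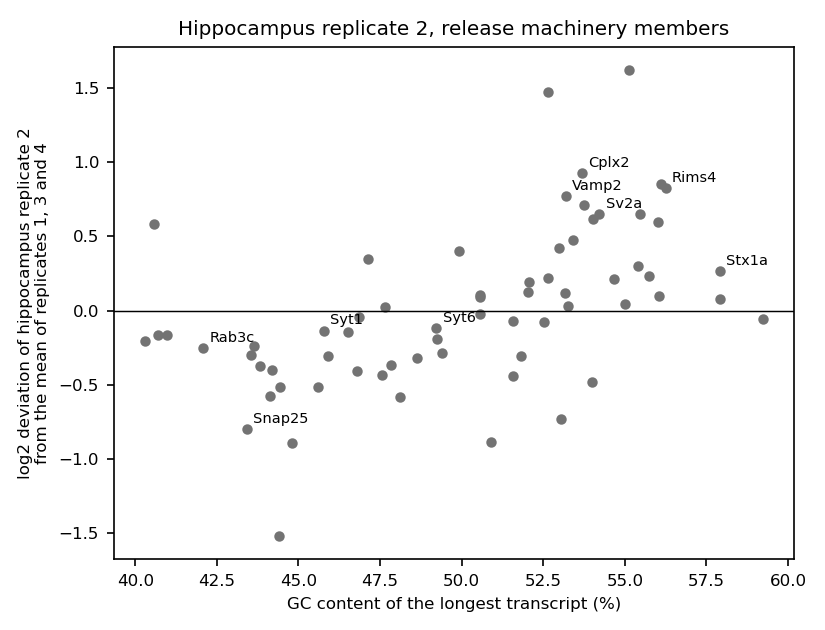
Log2 deviation of hippocampus replicate 2 from the mean of the other 3 hippocampal libraries against the GC content of each member's longest transcript, over 66 members. Snap25, at low GC content, lies at -0.80 and Cplx2, at higher GC content, at 0.92; the correlation was 0.527.

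Deviations of hippocampus replicate 2 moved with the GC content of the transcript. Over the 66 members, which share the same library, the correlation was 0.527, and over 12137 genes it was 0.402. PFC replicate 2 gave -0.586 and PFC replicate 4 gave 0.421 over the members. With a correction for GC content, chosen after seeing the data and fitted over genes that have a GC value, 13 members of 70 were higher in PFC and 1 in hippocampus, where 8.56% of those genes were called, 4.49% and 4.07% by direction. All 11 calls kept their sign under every alternative tried.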

How the data were processed

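Total RNA from hippocampus and PFC of C57Bl6 mice was depleted of ribosomal RNA, amplified from random and poly A primers, and sequenced on a GA IIx at 75 bases. The authors trimmed reads (FastX-Toolkit 0.0.13, Phred 28), mapped the reads on the NCBIM37 genome (TopHat2 2.0.9), assigned reads to gene names without strand (HTSeq 0.6.0), and divided by DESeq size factors. The deposited values are normalized counts, a signal unit, and all (100%) were whole reads after multiplication by the size factor, within 1e-06. FPKM values by Cufflinks 2.1.1 were not used. The methods give 8 mice pooled by 2, which leaves 4 pools, so hippocampus and PFC were presumably taken from shared animals. Which hippocampal library shares its mice with which PFC library is not given in the sources used here. Same-numbered replicates did not deviate together, which does not show that they come from different mice.

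The regions were compared with limma 3.58.1 (R 4.3.3; trend, two-sided, Benjamini-Hochberg over all 19789 genes) on log2(normalized count + 1), which understates changes of low genes. edgeR 4.0.16 and DESeq2 1.42.0 were run on the recovered whole reads. Paralogue ratios were tested by exact permutation. Genes were named with values if called, if their groups did not overlap, if they were core paralogues of evoked release, or if called in a companion list. Some other members, such as Rims4, Stx6, Stx7, Stx12, Stx16 and Stxbp6, were given with values outside this rule. Members and lists were chosen with earlier results of these data known. Other scalings, pseudocounts, filters, array weights, a replicate block and leaving out each library were tried. GC content and exon lengths came from GENCODE M1, which holds 74 of the 75 members. Fits were tested on simulated data. Results of 2 members are not reported here by name, though counts over members include them.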

Additional observations from a re-analysis of the deposited data

Results flagged for a closer look

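Of 80 groups of 4 libraries examined, 9 had a library far from the other 3 by Dixon's test, where chance gives about 1 in 20 groups, and 7 of the 9 were in hippocampus replicate 2. In that library Cplx1 stood at 2745, Rims3 at 303.1, Unc13a at 3364 and Sv2a at 3551 normalized counts, all above the other 3, whereas Snap25 at 18656 and Stxbp5 at 1949 were below them. The log2 ratio of Rims1 to Rims2 there was 1.61, above the others. In hippocampus replicate 3, Syn3 was high at 300.9 normalized counts. In PFC replicate 4, Unc13a was high at 4332 normalized counts.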

How the results depend on the processing

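For release machinery members called, the 11 became 20 with array weights, 6 with the replicate block (all 6 among the 11), and 5 to 23 when each library was left out. For all genes called, the 1124 became 2441 with array weights, 729 with the replicate block and 573 to 2216 leaving out each library. For companion genes called, the 7 became 23 with array weights and 4 to 24 leaving out each library. For paralogue pairs not overlapping, the 1 became 1 to 3. The highest of these leave-one-out counts came without hippocampus replicate 2. With the block, Rims2 (limma adjusted p = 0.0804), Rims3 (0.114), Rab3a (0.0965), Sv2c (0.0582) and Snap23 (0.0991) were not called. The regions appear to share animals, but whether same-numbered libraries share mice is not given. Same-numbered deviations correlated at -0.127, -0.0865, 0.0286 and 0.019. These values cannot settle the pairing, because deviations of some libraries also moved with GC content. Directions reversed for log2 fold changes near 0. Leaving out each library gave -0.0146 to 0.333 for Cplx2, -0.0717 to 0.0329 for Rab3c and -0.294 to 0.00409 for Vamp2, and Rab3c was 0.00215 with array weights. The Sv2a:Sv2b log2 ratio difference ran from -0.074 to 0.311 and the Rims1:Rims2 log2 ratio difference from -0.037 to 0.197. The cause of these changes was not tested. Of the named genes, 38 kept their sign under every setting. Depth was lowest in hippocampus replicate 4, where Cplx3 rests on 3 reads.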
